A study of Caenorhabditis elegans with 18 samples.

Results

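The earliest response to germline depletion of MOG-7 was measured as the difference between worms held on auxin for 1 h and worms held on ethanol. The comparison uses 12 of the 18 libraries of the series, 6 from each of the 2 groups, and the 6 libraries of a group come from the 6 batches, 1 from each, that the labels name I, II, V, VII, VIII and X. All of these worms were young adult Caenorhabditis elegans hermaphrodites of one synchronized strain, which carries mog-7::degron::gfp and, as a second transgene, sun-1p::TIR1::mRuby, taken before they held embryos. The degron and the TIR1 transgene are therefore present in both groups, and the groups differ in what was added and in how long it acted, since ethanol was given for 2 h and auxin for 1 h. Worms that lack the degron or TIR1 but received auxin are not analysed here, so a response to auxin itself and a response to the loss of MOG-7 cannot be told apart. RNA came from whole worms and was selected for poly-A tails, so that fewer cells of a type and less RNA per cell cannot be told apart either.

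TIR1 is a plant F-box protein that, once auxin is bound, hands a degron-tagged protein to the ubiquitin system for destruction. The sun-1 promoter drives TIR1 in the germ line. MOG-7 belongs to the mog group of splicing factors, named after mutants whose germ lines make sperm and fail to switch to oocytes. Splicing normally removes introns while a transcript is being made, so mature poly-A RNA holds little intron sequence, and intron reads in such libraries come from transcripts that were polyadenylated with an intron still in place, or from a low level of unspliced precursor. The X chromosome is largely silent in the worm germ line, which gives the autosomes most of the germline transcripts.

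Protein-coding genes took up 18153020 to 30747645 reads per library and intron intervals 186471 to 867178. Summed over fixed marker lists, germline RNA regulators stood at 11780 to 13710 counts per 1000000 (CPM) with ethanol, oocyte and eggshell genes at 11790 to 16760 CPM and major sperm protein genes at 2330 to 3268 CPM. Intestine genes stood at 50500 to 76150 CPM and muscle genes at 13320 to 16300 CPM, so germ line and soma were both measured. No pair of libraries within a group agreed within sampling noise, with a chi-square per degree of freedom of 4.61 to 31.8 over 30 pairs. The labels give batches but do not say whether these were separate cultures. In tests that pair libraries by batch, p-values thus measure the spread left among these libraries once batch differences are taken out. In tests without the pairing they measure the spread between the libraries of a group.

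The mRNA of the targeted gene was examined first. mog-7 (WBGene00009672, chromosome I, 8640508 to 8644399 on WBcel235, plus strand) had 37.4 CPM in the lowest ethanol library, 39.5 at the median and 41.5 in the highest. After 1 h of auxin these values were 35.1, 39.7 and 43.6 CPM. The groups overlapped, with a log2 change of 0.013 (SE 0.038, adjusted p = 0.837). This change turned negative with library sizes alone (-0.00916) and without batch VIII (-0.0149). The degron acts on the protein, which is not measured here, so these counts are no check of depletion. Reads in the introns of mog-7 itself did move, from 1.01 to 90.3 intron reads per 1000 reads of the gene at the median. The intron from 8643030 to 8643074 had no read in any ethanol library and 16 to 27 reads in each auxin library, at least 6.63-fold more than a floor of 3 counts per library.

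Intron reads rose across the transcriptome within the first hour. Every ethanol library held between 10.2 and 10.9 intron reads per 1000 gene reads, and every auxin library between 25.6 and 30.0. The groups did not overlap, and the ratio of 2.69 (2.49 to 2.93 within batches) was at the smallest p of the exact two-sided sign-flip test over 6 batches (p = 0.03125). The rise was not carried by a few introns, since it was 3.28-fold after the 1% of introns highest in reads were left out. The 1967 intervals outside the annotated introns had a ratio of 1.05. Reads were also spread over more introns, because 31918 to 38417 intervals had at least 1 read with ethanol and 46953 to 51113 after auxin.

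**Figure D1:**
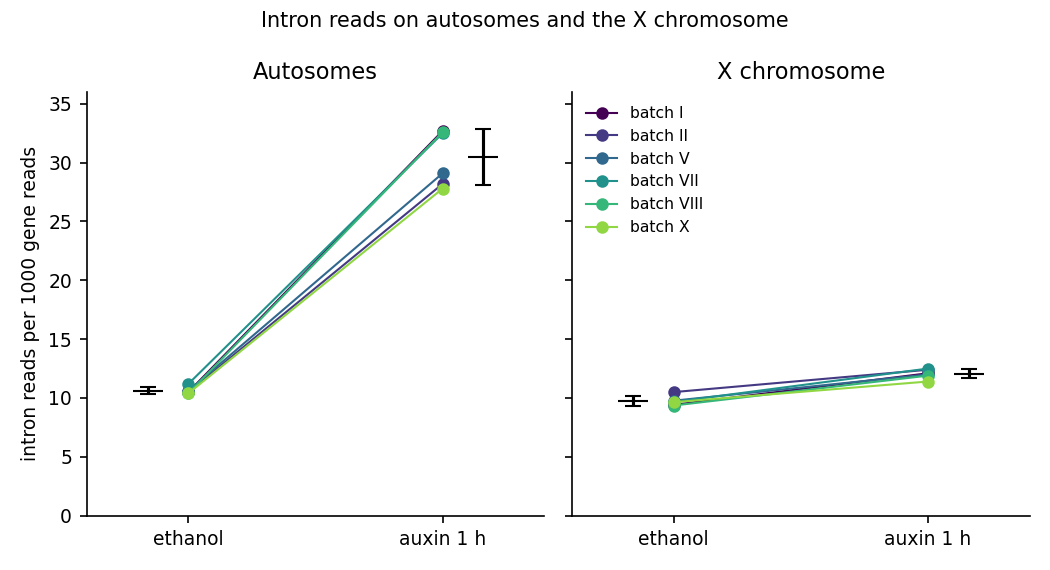
Intron reads per 1000 gene reads in each of the 6 batches, with ethanol and after 1 h of auxin, on autosomes and on the X chromosome, each line joining the 2 libraries of a batch. Black marks give the mean and SD of 6 libraries, and the axis starts at 0. Autosomal values rose from 10.6 to 30.5 on average and those on X from 9.73 to 12.

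The X chromosome took a smaller part in the rise. Introns on X, per 1000 reads of X genes, went from 9.73 ± 0.41 (SD, n = 6) to 12 ± 0.394, with ratios within batches of 1.18 to 1.3. On the autosomes the same measure went from 10.6 ± 0.303 to 30.5 ± 2.36, with ratios of 2.66 to 3.14. The log2 ratio was lower on X by 1.21 (SD 0.062) and in 6 of 6 batches (exact two-sided sign-flip test, p = 0.0312, the smallest it can give). Among single introns, 96 of 488 tested on X rose (19.7%), against 78.9% to 85.1% on each autosome. Introns with enough reads to test made up 2.69% of the intervals on X and 7.06% to 16.2% of those on each autosome. Many of them had enough reads only after auxin, so these shares do not describe all introns of a chromosome. Those 96 introns lay in 68 genes or pairs of genes that share an intron, and 16 of them in only 3 hosts. One of these hosts was mrp-4, which encodes an ABC export pump, with 8 of 8 introns up and a load of intron reads that went from 1.87 to 64.9 per 1000 gene reads at the median.

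Of 10731 introns with enough reads to test, 8554 rose (79.7%) and 133 fell (1.24%) by the quasi-likelihood test of edgeR with batch as a block. The filter kept many introns for their reads after auxin, and in 2927 of those tested no ethanol library went over 3 counts, so these shares do not describe all 106818 intervals. The median log2 change was 2.5 with such introns set to their lower bound, or 5.65-fold. Relative to the reads of the host gene, 7826 of 9733 introns rose (80.4%) and 71 fell (0.729%). When the introns were scaled by their own totals the median change dropped from 2.84 to 0.63, and of the 8849 introns then tested 4475 were called up and 3218 down. That setting also tested fewer introns than the 10731 above. Directions of single introns are therefore relative to the gene reads of the same library.

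The 8 introns with the largest gain in CPM lay in glh-1, cpg-2, cbd-1, rpl-3, rpl-26, rps-13 and eef-1G. glh-1 encodes a Vasa-like RNA helicase of the germ granules known as P granules. Its intron 5 (chromosome I, 6856913 to 6856958, plus strand, 46 bases) had 0.311 CPM in the lowest ethanol library, 0.383 at the median and 0.449 in the highest. After auxin the values were 44, 52.6 and 58.8 CPM, a 139.6-fold rise of the scaled read sum (95% counting interval 106.6 to 186.5), while the glh-1 gene itself changed by a log2 of 0.15. The other 5 introns of glh-1 rose too, from 13 to 64 reads summed over ethanol libraries to 838 to 2538 reads over auxin libraries. The neighbouring introns of one transcript thus differed widely in reads gained, with 7697 reads in intron 5.

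Introns of the eggshell genes cbd-1 and cpg-2 were also among the 8. Intron 4 of cbd-1 (chromosome IV, 11374438 to 11374483, plus strand, 46 bases), whose product binds chitin in the eggshell, ran from 0.12 to 0.37 CPM with ethanol around a median of 0.269, and from 30.6 to 43.4 CPM after auxin around a median of 38.4. cpg-2 encodes a chondroitin proteoglycan of the eggshell. Its intron 4 (chromosome III, 7102439 to 7102482, minus strand, 44 bases) went from a median of 1.22 to one of 44.5 CPM, and its intron 1 (7103877 to 7103919, 43 bases) from 0.77 to 39.5 CPM. None of these introns overlapped between the groups, as was so for 7871 of the 10731 introns tested.

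The other 4 of the 8 lay in ribosomal protein and elongation factor genes, and their ethanol medians were above those of the introns just described. Intron 1 of rpl-3 (chromosome III, 3868230 to 3868328, plus strand, 99 bases), from a ribosomal protein gene, went from a median of 3.34 to 44 CPM. Intron 2 of rpl-26 (chromosome II, 8603325 to 8603424, plus strand) went from 3.2 to 34 CPM. That interval of rpl-26 overlaps an annotated exon on the same strand, so some of its reads may be exon reads. The intron of eef-1G, a translation elongation factor gene, at chromosome V, 10966486 to 10966529, went from 3.53 to 35.1 CPM. Intron 1 of rps-13 (chromosome III, 6374681 to 6374852, minus strand, 172 bases) was already read at 42 to 55.7 CPM with ethanol and reached 80.6 to 104 CPM. Its log2 rise of 0.94 was smaller than the general shift, and it became a fall of -0.749 when introns were scaled by their own totals.

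Among the 2927 tested introns with at most 3 reads in every ethanol library, the 8 with the highest lower bound on their rise are described here. Intron 5 of glh-4, another P granule helicase gene, reached 7.31 to 9.30 CPM, which is at least 61.7-fold above the floor. Intron 5 of pgl-3, which encodes a P granule scaffold protein, reached 5.56 to 8.01 CPM. The Argonaute genes prg-1, hrde-1 and wago-4, whose products carry small RNAs in the germ line, each had 1 intron among these 8, with medians of 5.84, 6.53 and 6.08 CPM after auxin. The remaining introns of the 8 lay in glh-1 (intron 6), maph-1.3 and cls-2, at medians of 7.51, 7.03 and 6.23 CPM.

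The size of the rise differed by intron length. Autosomal introns of 45 to 50 bases held 1.55 reads per 1000 gene reads with ethanol and 7.75 after auxin, a ratio of 5.01 (4.51 to 5.67 within batches). Autosomal introns of 1 to 44 bases had a ratio of 4.69, those of 51 to 100 bases 2.93, those over 100 and up to 400 bases 2.21, those over 400 and up to 1000 bases 2.25 and those over 1000 bases 1.74. The batch ranges of the 2 shortest classes overlapped, as did those of the classes between 100 and 1000 bases. Among tested autosomal introns 92.3% of those of 45 to 50 bases rose and 69.2% of those over 1000 bases. The filter kept many of the tested introns for their reads after auxin, so these shares do not describe all introns of a class. Long introns are more likely to hold other transcripts, and in introns that overlap an exon on the same strand the ratio was 1.22, against 3.06 where no exon overlapped. The part of such overlaps in the order by length was not tested.

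**Figure D2:**
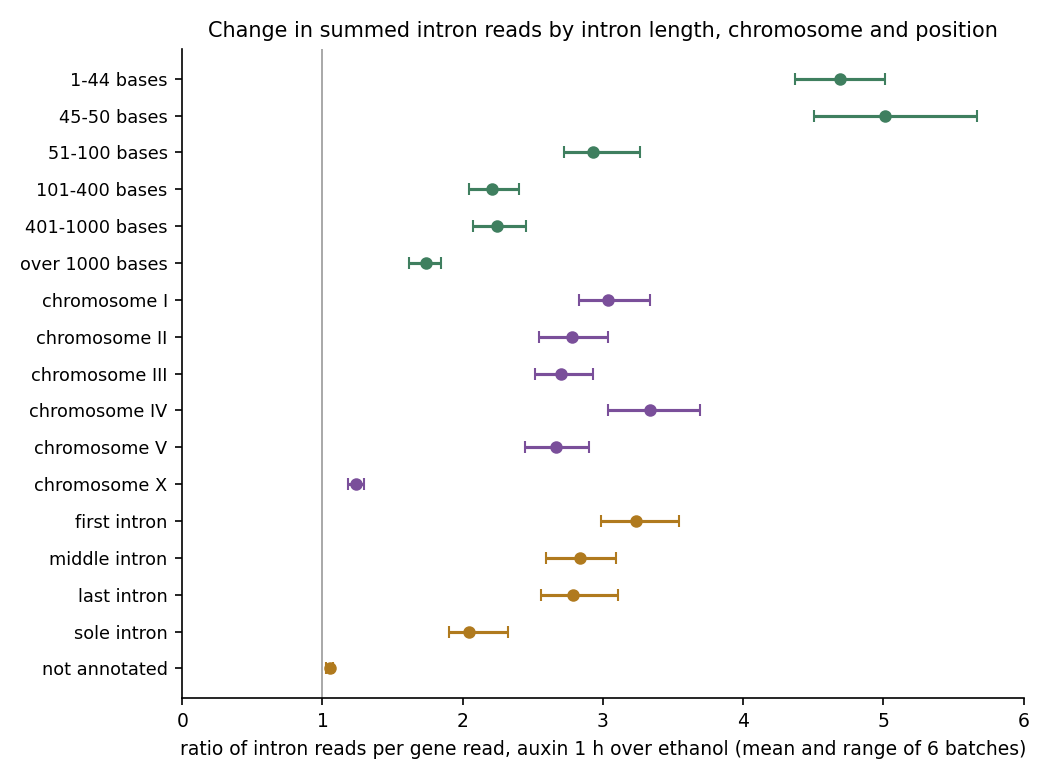
Ratio of intron reads per gene read, 1 h of auxin over ethanol, by class of intron (autosomal length classes, chromosomes, and position in the gene), with the ratio of the means as a point and the range of the 6 batches as a bar. Introns of 45 to 50 bases stand highest at 5.01, those on X at 1.24 and intervals without an annotated intron at 1.05.

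Classes by position in the gene lay closer together than classes by length. First introns rose 3.24-fold (2.98 to 3.54 within batches), middle introns 2.83-fold (2.60 to 3.10) and last introns 2.79-fold (2.56 to 3.11), ranges that overlap. The sole introns of single-intron genes rose 2.04-fold (1.90 to 2.32), a range below those of the other positions. Within genes the rise was general among the introns that could be tested. Of 433 genes with at least 5 tested introns, all tested introns rose in 371 (85.7%), some in 55 and none in 7. The filter kept many introns for their reads after auxin and left out introns that stayed low. These shares therefore do not describe all introns of those genes.

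The load of intron reads per gene gives the same change on the scale of transcripts. Over 6994 genes with at least 200 reads in each library the median load was 7.97 intron reads per 1000 gene reads with ethanol and 27.3 after 1 h. The load was higher after auxin in 6119 of these genes, and in 3953 it was higher without overlap between the groups. Genes with a load over 100 numbered 149 with ethanol and 738 after auxin. The largest gains were in F23F12.3, coh-3, coq-3, dph-2, CD4.8, coh-4, bec-1 and set-31. coh-3 and coh-4 encode nearly identical meiotic cohesin subunits of the kleisin type. The load of coh-3 went from 56.9 to 93.5 in the ethanol libraries to 627 to 931 after auxin, and that of coh-4 from 63.6 to 105 to 576 to 763. In bec-1, the worm Beclin gene of autophagy, it went from a median of 39.1 to 566, while the gene count did not pass the test (log2 -0.040, adjusted p = 0.565). F23F12.3 and dph-2 already held more intron reads than gene reads with ethanol, with medians of 1168 and 1646, and the dph-2 groups overlapped.

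Introns that lost reads were few and differed from the tested introns as a whole, most of which rose. Of the 133, 26 matched no annotated intron (19.5%, against 2.5% of all tested) and 33 overlapped an exon (24.8%, against 8.04%). Among the 2044 tested introns with no call, 162 matched no annotated intron (7.93%) and 406 overlapped an exon (19.9%). Exon overlap was thus not particular to the introns that fell. The host genes of the 133 were called down for 70 (52.6%, against 24.8% of all tested). Among the 2044 with no call, the host was called down for 347. Relative to the host 40 of the 102 falling introns that could be tested still fell. The largest fall, by a rule on direction and depth, was in intron 6 of such-1 (chromosome III, 11517612 to 11517672, minus strand), from a subunit gene of the anaphase-promoting complex. It had 14 to 23 reads per ethanol library and 3 to 12 per auxin library, a log2 change of -1.71 (SE 0.285, adjusted p = 2.77e-07). Introns of set-24, C24F3.2, F35G12.5 and mett-10 changed by -1.66, -1.59, -1.55 and -1.46, and those of Y51F10.4 and F22D6.9 by -1.36 and -1.20, all from at most 33 reads in an ethanol library. The last intron of a pseudogene on chromosome V (14591818 to 14592619, minus strand) fell from 2.29 to 3.69 CPM to 1.07 to 1.24 CPM without overlap.

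Gene counts moved far less than intron counts. Of 13799 genes tested, 1958 rose (14.2%) and 2237 fell (16.2%) with batch as a block, and without the block 459 rose (3.33%) and 795 fell (5.76%). Each of those 1254 genes was also called in the same direction with the block. Only 31 of the genes that rose and 39 of those that fell changed by more than 2-fold, and the interquartile range of all genes lay between -0.093 and 0.11 on the log2 scale. In 271 rising and 542 falling genes the 6 auxin libraries lay wholly outside the range of the 6 ethanol libraries. With library sizes alone in place of TMM factors 1482 genes rose and 2707 fell, so that 35.4% of calls were upward in place of 46.7%. Genes on X rose more often than they fell (377 against 152 of 1941, and 93 against 29 without the block). The same held on chromosome V (455 against 324 of 2595, and 124 against 109 without the block). Genes on the other autosomes fell more often than they rose, most clearly on I (510 against 251 of 2296) and III (454 against 233 of 2208). On II the counts were 402 against 312 of 2357, and on IV 391 against 325 of 2378. Without the block they were 188 against 50 (I), 172 against 45 (III), 154 against 78 (II) and 142 against 69 (IV).

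**Figure D3:**
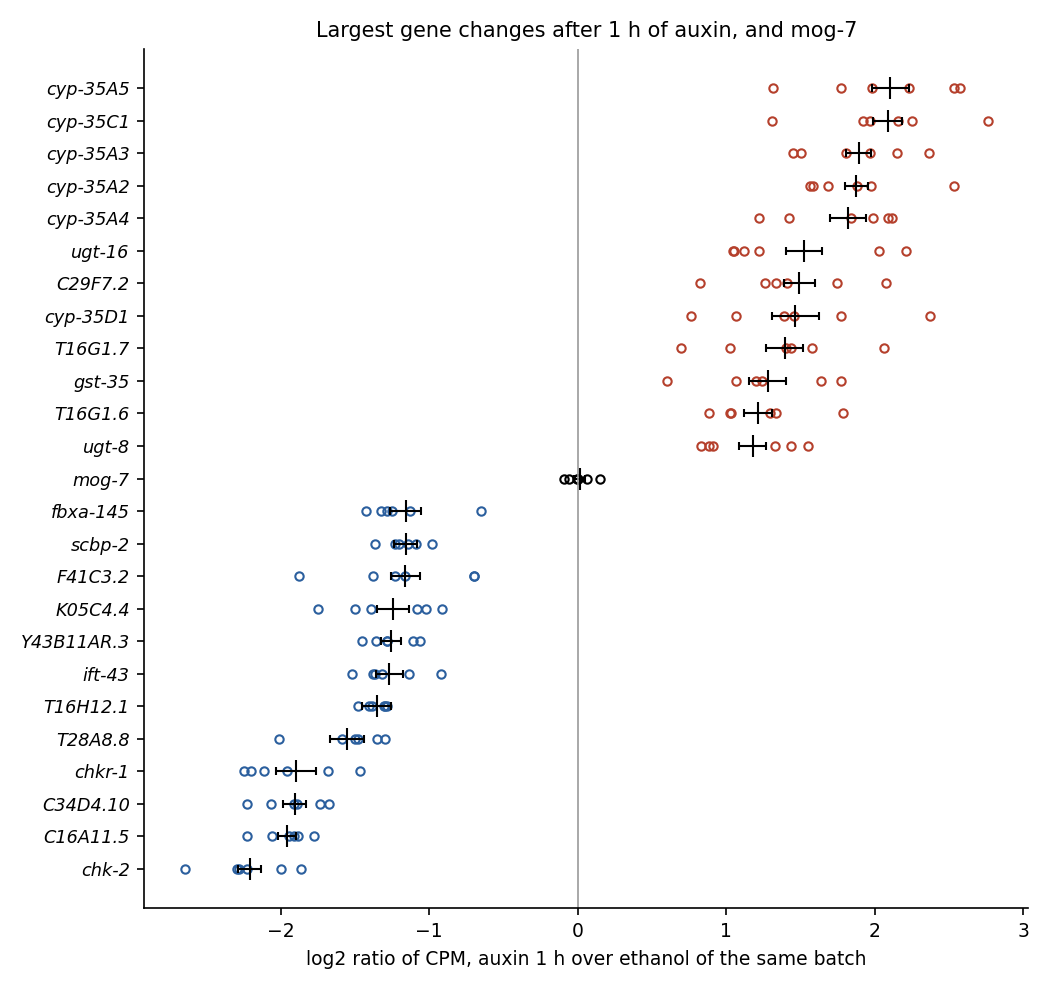
Log2 ratio of CPM, 1 h of auxin over ethanol of the same batch, for the 12 genes with the largest rises, the 12 with the largest falls, and mog-7. Each circle is 1 batch and the black mark is the fitted log2 change with its SE. The 12 rises and 12 falls were named only where all 6 batches moved the same way. The 6 circles of each rising gene thus lie above 0 and those of each falling gene below. cyp-35A5 stands at 2.1 and chk-2 at -2.21, while the circles of mog-7 lie on both sides.

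The largest fall was that of chk-2 (WBGene00000499, on the minus strand of chromosome V, 19908086 to 19916023), the kinase that starts meiotic chromosome pairing and break formation in the worm. It had 17.7 CPM in the lowest ethanol library, 19.5 at the median and 21.9 in the highest, and 2.93, 4.45 and 4.88 CPM after 1 h. The groups lay far apart, with a log2 change of -2.21 (SE 0.076, adjusted p = 1.84e-14), or 4.62-fold lower. While its gene count fell, its intron reads rose from 134 summed over the ethanol libraries to 1210 over the auxin libraries. The load went from 44.6 to 1870 intron reads per 1000 gene reads at the median, so that every auxin library held more reads in chk-2 introns than in the gene count.

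The 13 introns of chk-2 did not gain alike. Intron 10 (19911007 to 19913754, 2748 bases), the longest, went from 5 reads over the 6 ethanol libraries to 157, and intron 12 (19910003 to 19910587) from 3 to 142. Intron 7 (19914150 to 19914202, 53 bases) went from 1 to 98 reads. Intron 4 (19915268 to 19915373) held 57 reads with ethanol and 74 after auxin, and did not pass the test (log2 0.33, adjusted p = 0.326). Intron 9 was intermediate, with 24 and 92 reads.

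Several other large falls showed the same pairing of fewer gene reads and more intron reads. C16A11.5 (WBGene00015818, chromosome II, 4223305 to 4226338) fell from 24.5 to 27.4 CPM to 5.87 to 7.35 CPM (log2 -1.96, SE 0.059, adjusted p = 3.13e-15). Its load went from a median of 51.8 to 736. C34D4.10 (WBGene00016402, chromosome IV, 7119916 to 7121413) fell from 10.1 to 13 CPM to 2.71 to 3.88 CPM (log2 -1.91, SE 0.078), and each of its 6 introns rose, intron 3 from 3 reads to 235. chkr-1 (WBGene00011612), a paralog of chk-2 on X, fell from a median of 3.23 to 0.899 CPM with a load that went from 56.5 to 1801. How the authors' counting treated reads shared by chk-2 and chkr-1 is not given in the sources used here.

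Lower in the order were T28A8.8 (log2 -1.55), T16H12.1 (-1.35), ift-43 (-1.27), Y43B11AR.3 (-1.26), K05C4.4 (-1.24), F41C3.2 (-1.16), scbp-2 (-1.16) and fbxa-145 (-1.16). All were lower in 6 of 6 batches, which the rule for naming the 12 required. ift-43 encodes a subunit of the intraflagellar transport machinery of cilia, and its load went from a median of 57.9 to 800. In scbp-2 the load went from 21.9 to 1031, intron 1 rising from 1 read to 209. The pairing was absent, or seen in only part of the intervals, in some of the 12. In K05C4.4 the intron reads went from 436 summed over ethanol libraries to 433 over auxin libraries. Its 1 tested interval, which matches no annotated intron, fell from 422 to 239 reads (log2 -0.89). Each annotated intron of K05C4.4 gained reads, such as intron 4 from 7 to 61. In T16H12.1 the sum went from 141 to 278. Its 1 tested interval, also outside the annotated introns, fell from 123 to 74 reads (-0.78). Each annotated intron of T16H12.1 gained reads, such as intron 5 from 5 to 56. Y43B11AR.3 has no intron interval of its own. In F41C3.2 and fbxa-145, an F-box gene, the loads overlapped between the groups, with medians of 13.5 and 17.4 for F41C3.2 and of 24.1 and 45.4 for fbxa-145. Of the 39 genes that fell by more than 2-fold, 30 have intron intervals of their own, and their median load went from 26.2 to 530. The load was higher in 30 of 30, against 6119 of the 6994 genes with at least 200 reads in each library. The load has the gene count as its denominator, so a fall of the gene raises it. Over the 19 of these falling genes with at least 10 intron reads with ethanol, the intron reads themselves rose in 16, by a median of 2.52-fold. Among the genes that rose by more than 2-fold, 13 had as many intron reads with ethanol. Intron reads rose in 12 of those 13, by a median of 4.17-fold. A gain of intron reads was thus not particular to the genes that fell.

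Of the 12 genes that rose most, 9 belong to families known for detoxification. cyp-35A5, cyp-35C1, cyp-35A3, cyp-35A2 and cyp-35A4 are cytochrome P450 genes that are induced in the intestine by foreign compounds. cyp-35C1 (WBGene00007362, chromosome V, 13896663 to 13898487, minus strand) had 14.3 CPM in the lowest ethanol library, 16.4 at the median and 24.9 in the highest, and 39.5, 81.6 and 119 CPM after auxin. The groups did not overlap (log2 2.09, SE 0.098, adjusted p = 3.12e-12). cyp-35A2 went from 17.2 to 46.7 CPM around 31.1 to 50.9 to 151 CPM around 111 (log2 1.87, SE 0.077). cyp-35A5, cyp-35A3 and cyp-35A4 rose by 2.1, 1.89 and 1.82 on the log2 scale, and cyp-35D1 by 1.47. These paralogs are alike in sequence, so that how their shared reads were counted bears on the level of each.

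The other genes among the 12 largest rises were ugt-16 (log2 1.52) and ugt-8 (1.18), which encode UDP-glucuronosyltransferases, gst-35 (1.28), a glutathione S-transferase gene, and C29F7.2 (1.49), T16G1.7 (1.39) and T16G1.6 (1.21). ugt-16 had medians of 6.19 CPM with ethanol and 16.9 CPM after auxin, with a highest auxin library of 35.1 CPM. T16G1.7 and T16G1.6 lie next to each other on chromosome V. Levels varied between batches, as the ranges of the auxin libraries of C29F7.2 (11.3 to 32.2 CPM) and T16G1.7 (4.97 to 15.9 CPM) show. The change was upward in 6 of 6 batches for each of the 12, as the rule that named them required. The ranges of T16G1.7, T16G1.6 and ugt-8 overlapped.

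The intron loads of these 12 rising genes overlapped between the groups in all but cyp-35A5, which had no intron read with ethanol and a load of 5 to 32 after auxin, from 15 reads in all. That of cyp-35A3 went from a median of 2.11 to 9.99 and that of ugt-16 from 11.6 to 22.1. The load of cyp-35A2 was 26.9 intron reads per 1000 gene reads with ethanol and 29.5 after auxin at the median, and that of cyp-35C1 5.60 and 6.15. Of the 31 genes that rose by more than 2-fold, 27 have intron intervals of their own, with median loads of 20.8 and 21.4, and 3 exceeded 100 after auxin. Over all genes with at least 200 reads per library the median load went from 7.98 to 13.6 in genes called up, from 10.8 to 51.6 in genes called down and from 7.05 to 25.1 in genes with no call. The load more than doubled in 26.4%, 79.0% and 58.3% of them.

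**Figure D4:**
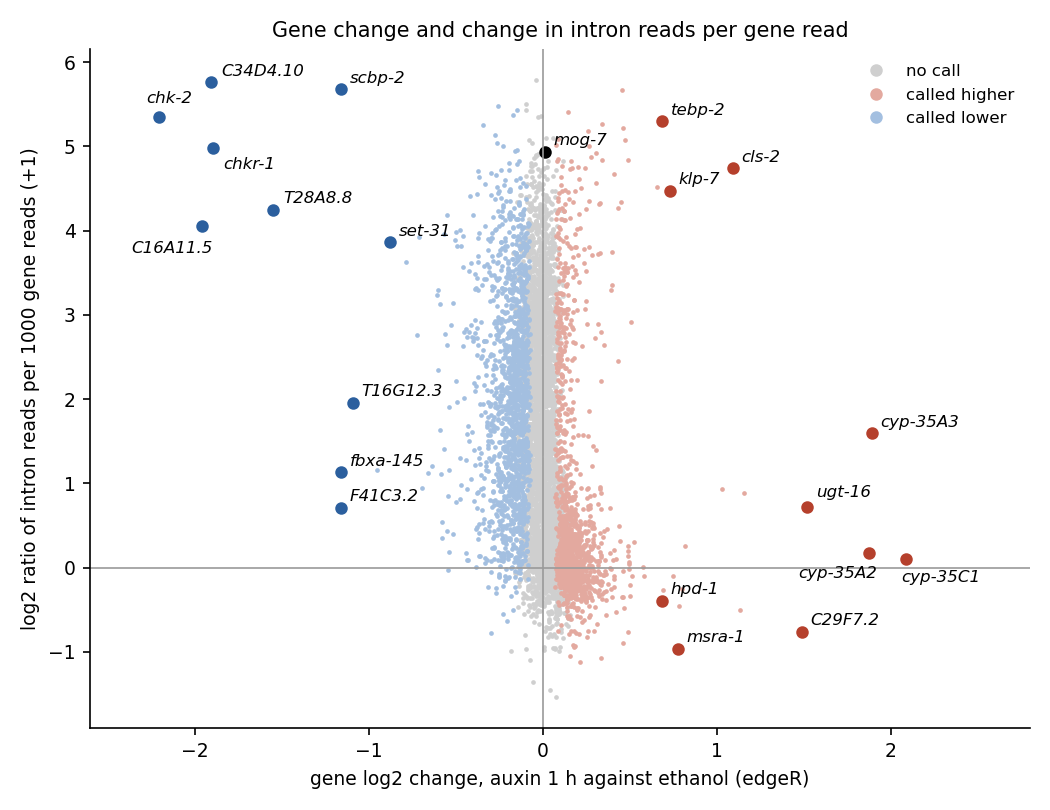
Log2 change of the gene count at 1 h (horizontal) against the log2 ratio of intron reads per 1000 gene reads plus 1, auxin over ethanol (vertical), 1 point per gene, for genes with at least 200 reads in each library and named genes. Colours give calls with the batch block. cyp-35A2 and cyp-35C1 lie far right near 0 on the vertical axis, chk-2 and C34D4.10 lie at the upper left, and cls-2 and tebp-2 at the upper right.

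Among the genes called up whose load more than doubled, 348 of 1318, the following were picked after their values were seen. cls-2 (WBGene00000549, chromosome III, 9055048 to 9058895, plus strand), which encodes a CLASP protein of the spindle, had 75.7, 84.5 and 93.7 CPM in the lowest, median and highest ethanol libraries and 177, 182 and 185 CPM after auxin. The groups did not overlap (log2 1.1, SE 0.033, adjusted p = 3.13e-15). All 7 of its introns rose, from 5 to 22 reads each over the ethanol libraries to 436 to 1520 reads each. tebp-2, a telomere-binding protein gene, rose from a median of 51.8 to 83.7 CPM with a load that went from 5.22 to 259. morc-1, which acts in germline chromatin downstream of small RNAs, rose from 81.4 to 131 CPM with a load of 177, and set-9 from 70.2 to 95.3 CPM with a load of 166.

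Many genes of germline function fell, set against 16.2% of all genes that fell and 14.2% that rose. Among 53 meiosis genes 33 fell and 1 rose (20 and 0 without the block), with a median log2 change of -0.147 against 0.013 over all genes tested. Beside chk-2 the first by adjusted p were coh-3 (log2 -0.60), him-14 (-0.37), a MutS homolog of crossover formation, and zhp-2 (-0.39), a RING protein of the synaptonemal complex. Of 36 germline RNA regulators 22 fell and 5 rose (11 and 2 without the block, and 2 rose without batch I or VII), with a median of -0.11. The first were simr-1 (-0.51), a small RNA pathway gene, the Piwi gene prg-1 (-0.37), mip-1 (-0.39) and glh-2 (-0.36), both of germ granules. In prg-1 the ethanol libraries spanned 229 to 293 CPM and the auxin libraries 195 to 214 CPM without overlap. The median load of the meiosis genes with enough reads went from 9.47 to 76.2, with a higher load in 47 of 47. That of the germline RNA regulators went from 6.99 to 66.8, with a higher load in 35 of 35. Over all genes with enough reads the load was higher in 6119 of 6994.

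Argonaute genes fell in 12 of 22 cases and rose in 1 (8 and 0 without the block), against 16.2% and 14.2% of all genes. ppw-2 went from 142 to 160 CPM to 96.7 to 112 CPM (log2 -0.55, SE 0.029, adjusted p = 1.65e-11), and ppw-1 fell by 0.271 and hrde-4 fell by 0.379 on the log2 scale. Genes of nonsense-mediated decay, the surveillance route for transcripts with early stop codons, fell in 8 of 9 cases (8 without the block). smg-1, the kinase of the pathway, fell by 0.238, smg-2, its helicase, fell by 0.203 and smg-9 fell by 0.485 on the log2 scale. Decay activity is not measured here.

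The oocyte list moved both ways, with 23.5% up and 26.5% down against 14.2% and 16.2% of all genes. Of 34 oocyte and eggshell genes 8 rose and 9 fell (1 and 0 without the block, and 5 up without batch VII, VIII or X), while their median load went from 2.97 to 41.3. egg-6 rose by 0.34 on the log2 scale, cpg-1 by 0.28, cbd-1 by 0.27 and egg-5 by 0.24. Among 47 cell cycle and replication genes 10 rose and 10 fell (3 and 3 without the block), or 21.3% in each direction. klp-7, the kinesin that takes microtubules apart, rose from a median of 102 to 181 CPM (log2 0.73, SE 0.035, adjusted p = 3.2e-12), and icp-1, an INCENP subunit of the chromosomal passenger complex, by 0.46. top-2, topoisomerase II, rose by 0.39 and the spindle checkpoint gene mdf-2 fell by 0.329. The load was higher in 47 of 47 genes of that list (6119 of 6994 over all genes with enough reads), so genes with more intron reads went both ways.

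**Figure D5:**
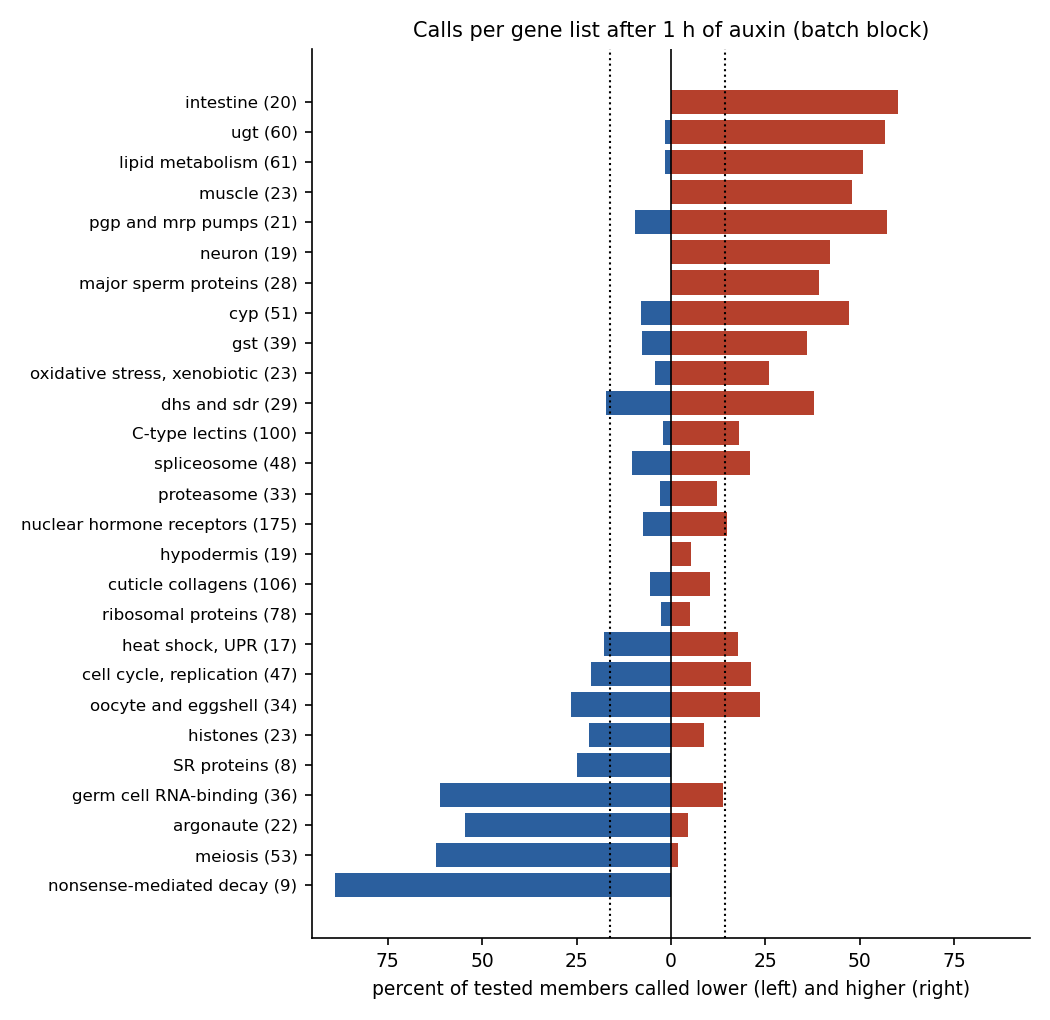
Percent of the tested members of each gene list (number tested in parentheses) called lower (bars to the left) and higher (bars to the right) at 1 h with the batch block, with dotted lines at the 16.2% and 14.2% of all genes. Nonsense-mediated decay, meiosis, Argonaute and germ cell RNA-binding lists extend furthest left, and intestine, pgp and mrp, ugt and lipid lists furthest right.

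Of 48 spliceosome genes 10 rose and 5 fell (4 and 1 without the block, and 3 down without batch I), or 20.8% and 10.4% against 14.2% and 16.2% of all genes. The first by adjusted p all rose and include helicases and core subunits of the catalytic machine. snrp-200 went from 264 to 291 CPM to 345 to 402 CPM (log2 0.43, SE 0.027, adjusted p = 3.37e-10), mog-5 rose by 0.27, sftb-1 by 0.26 and prp-8 by 0.19. Of the other mog genes, mog-1, mog-2, mog-3 and mog-4 had log2 changes of 0.014, -0.0050, -0.063 and -0.015 and did not pass the test, while their loads went from medians of 2.27, 1.93, 19.9 and 6.10 to 33.6, 32.4, 159 and 76.9. Of 8 SR protein genes rsp-4 and rsp-8 fell, by 0.136 and 0.119 on the log2 scale, and neither did so without the block. Of 78 ribosomal protein genes 4 rose and 2 fell (0 and 0 without the block). Their median load went from 2.39 to 16.2, with a higher load in 64 of 64, against 6119 of all 6994 genes with enough reads. Of 33 proteasome genes 4 rose and 1 fell (0 and 1 without the block), the last being rpn-6.2 (log2 -0.43). The 4 ribosomal and the 4 proteasome rises came to 1 and 0 without batch VII.

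Many somatic markers rose by small amounts, against the 14.2% of all genes that rose. Of 23 muscle genes 11 rose and none fell (2 without the block, and 6 without batch VII), with a median of 0.089. The giant sarcomere gene ttn-1 rose by 0.22 and the twitchin gene unc-22 by 0.17. Of 20 intestine genes 12 rose and none fell (0 without the block), and of 19 neuronal genes 8 rose and none fell (2 without the block, 5 without batch VII and 4 with DESeq2). Their median loads were 2.21 and 2.43 in muscle and 4.34 and 5.06 in intestine. Hypodermal genes outside the collagens did not share this rise. Of 19 tested 1 rose and none fell, with a median log2 change of -0.116. Since CPM is a share of the library, a fall of germline transcripts and a rise of somatic ones cannot be told apart from these counts. Major sperm protein genes, which have no intron intervals with enough reads, rose in 11 of 28 cases (0 without the block, 4 without batch VII and 7 without batch V), by at most 0.20.

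Detoxification families held larger rises than those somatic markers. Over all genes 14.2% rose and 16.2% fell. Of 51 cytochrome P450 genes 24 rose and 4 fell (12 and 1 without the block, and 14 up with DESeq2), with a median of 0.239 and 8 members over 2-fold. Of 60 ugt genes 34 rose and 1 fell (19 and 0 without the block), with a median of 0.234. ugt-22 had 146 to 178 CPM with ethanol and 245 to 305 CPM after auxin (log2 0.82, SE 0.038, adjusted p = 2.65e-12), and ugt-63 rose by 0.75. In the gst family 14 of 39 rose and 3 fell (5 and 0 without the block), among them gst-21 (1.19), gst-5 (0.45) and gst-6 (0.40). Of 21 pgp and mrp export pump genes 12 rose and 2 fell (7 and 0 without the block). pgp-1, a P-glycoprotein gene, went from a median of 28.1 to 63.9 CPM without overlap (log2 1.16, SE 0.083). The part that the small rise of somatic markers has in these changes was not tested.

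Loads differed within the P450 family. The cyp-31A genes, P450 genes of the germ line that act in eggshell formation, fell slightly, with log2 changes of -0.092 (cyp-31A2), -0.101 (cyp-31A3) and -0.232 (cyp-31A5). Their loads went from medians of 4.66, 3.34 and 6.93 to 85.4, 73.7 and 71.0 without overlap. A higher load without overlap was found in 3953 of the 6994 genes with at least 200 reads in each library. The cyp-31A genes were picked after their values were seen, and without the block cyp-31A5 alone passed (adjusted p = 0.0207). Without batch VII the changes of cyp-31A2 and cyp-31A3 did not pass either.

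Among metabolic genes, of 61 lipid genes 31 rose and 1 fell (4 and 0 without the block), with a median of 0.105. These are 50.8% and 1.64%, against 14.2% and 16.2% of all genes. acs-2, a mitochondrial acyl-CoA synthetase gene, rose from a median of 21.2 to 36.5 CPM (log2 0.80, SE 0.040), in groups that overlapped (adjusted p = 6.83e-12 with the block and 0.0974 without it). elo-2, acox-1.1 and acox-1.4 rose by 0.27, 0.24 and 0.29. In tyrosine breakdown, a group picked after its values were seen, tatn-1 and hpd-1, which code for the first and second enzymes, rose by 0.52 and 0.69, and the later enzyme genes hgo-1, gst-42 and fah-1 by 0.15, 0.15 and 0.14. Without the block hgo-1 (adjusted p = 0.0994) and gst-42 (0.0867) did not pass, and their groups overlapped. hpd-1 went from 216 to 297 CPM around 263 to 316 to 495 CPM around 436 without overlap. Also picked in this way were msra-1, a methionine sulfoxide reductase gene (0.78), semo-1, a selenium-binding methanethiol oxidase gene (0.63), and lias-1, the lipoic acid synthase gene (0.65).

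Of 17 heat shock and unfolded protein response genes 3 rose and 3 fell (0 and 0 without the block), 17.6% in each direction against 14.2% and 16.2% of all genes, among them hsp-70 (log2 -0.90, from a median of 1.47 CPM) and xbp-1 (-0.17). Of 23 genes of oxidative and xenobiotic signalling 6 rose and 1 fell (1 and 0 without the block, and 3 up without batch I, VII or X), with gst-10 first (0.32). Of 175 nuclear hormone receptor genes 26 rose and 13 fell (7 and 5 without the block, and 17 up without batch I), or 14.9% and 7.43% against 14.2% and 16.2% of all genes. Of these receptors nhr-31 (0.28) and nhr-274 (-0.32) were first by adjusted p. Of 100 C-type lectin genes 18 rose and 2 fell (2 and 0 without the block, and 9 up with DESeq2), led by clec-1 (0.30). Short-chain dehydrogenase genes rose in 11 of 29 cases and fell in 5 (3 and 0 without the block, and 7 up without batch VII), with dhs-23 highest at 1.7, from a median of 0.862 to one of 2.78 CPM.

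Calls among collagen and histone genes depended on single batches. Of 106 collagen genes 11 rose and 6 fell (0 and 0 without the block), with a median log2 change of -0.020. These are 10.4% and 5.66%, against 14.2% and 16.2% of all genes. Without batch VII 5 collagen genes rose and 29 fell. Among 23 histone genes 2 rose and 5 fell (0 and 0 without the block), or 8.7% and 21.7%. his-63 and his-64 had large fitted falls (-1.50 and -1.75), but one ethanol library, that of batch V, held 9.80 and 6.70 CPM against medians of 1.35 and 0.578. Without batch V the fall of his-64 did not pass (adjusted p = 0.269) and the list held 1 fall in place of 5. The histone genes are many near-identical copies, and how reads shared among them were counted is not given in the sources used here.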

How the data were processed

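Poly-A RNA of whole worms was sequenced from stranded libraries, per the labels' protocols. The authors deposited raw read counts per protein-coding gene and per intron interval, which were used as deposited, with the columns of 1 h of auxin and of ethanol. The submitters' processing notes name Trimmomatic, cutadapt, STAR, SAMtools, Picard, featureCounts, limma and edgeR without versions, and the genome build, the annotation release, the strand setting for introns and the rule for shared reads are not given in the sources used here. No value column lacked a sample (0 columns). Of 106818 intervals 98.2% match an intron of WBcel235 (Ensembl release 115), whose coordinates are printed. Splice-site sequences are not used here.

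Genes and introns went through edgeR 4.0.16 and its quasi-likelihood test (R 4.3.3) after filterByExpr with a minimum count of 10, with TMM factors and the batch as a block, over 12 libraries, with Benjamini-Hochberg adjustment over all features tested and calls at an adjusted p under 0.05. Introns were scaled by the gene-table sizes and TMM factors, or the host gene count plus 1 as offset. CPM is the count per 1000000 scaled reads. The load of a gene is the reads in intervals that belong to it alone per 1000 of its gene reads, and a floor of 3 counts per library (0.1292 CPM on average) gives lower bounds. The Wilson 95% interval of the intron share of the library with the fewest reads ran from 1.01% to 1.02%; these bounds and the floor reflect counting error alone. With batch differences taken out by the block, the coefficient of variation beyond counting was 0.0403 for genes and 0.133 for introns. Without the block it was 0.106 for genes. Alternatives used DESeq2 1.42.0, no block, all 18 libraries, library sizes alone, no filter, and each batch left out.

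The batch of each library comes from the labels. Deviations from the group means correlated across genes between the 2 libraries of a batch with r of 0.16 to 0.67, and between libraries of different batches with r of -0.48 to 0.33, so the batches were treated as pairs. Across introns the values within batches were 0.033 to 0.16.

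Named genes are the 12 largest rises and the 12 largest falls among genes called, with the same direction in 6 of 6 batches and a mean of at least 2 CPM, and up to 4 members of each of 27 gene lists with the smallest adjusted p. Introns were named by gain in CPM, by lower bound and by fall, and genes by gain in load. The comparison, its members and the lists were chosen with earlier results of these data known. The scripts were tested on simulated counts.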

Additional observations from a re-analysis of the deposited data

Results flagged for a closer look

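A sample was singled out where its gap to the nearest library of its group exceeded Dixon's 95% critical share of the range of the group, which chance gives in about 1 of 20 groups of 6. This occurred in 23 of 260 groups examined (8.85%). The groups were those of genes and introns named in the text, some of them named only in this section, and of the total intron reads. The share is therefore not a test against 1 in 20.

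Levels of sqt-3, rol-8 and col-63, all cuticle genes, stood apart in the batch X libraries of both groups. Most cuticle genes were not examined in this way. The collagen gene sqt-3 had 24.9 CPM in the ethanol library of batch X against 6.65 to 9.99 in the others (gap 0.817 of the range) and 19.2 CPM in the auxin library against 6.8 to 7.87 (gap 0.913). The cuticle collagen gene rol-8 had 2.93 against 0.793 to 1.56 CPM with ethanol (gap 0.64) and 2.62 against 0.608 to 1.07 CPM after auxin (gap 0.772). col-63 had 28.4 against 4.39 to 12.4 CPM (gap 0.666) and 21.4 against 2.78 to 8.97 CPM (gap 0.667). In the same batch coh-3 was lowest with ethanol at 24.5 CPM (gap 0.657), ppw-1 lowest with ethanol at 130 CPM (gap 0.682), mip-1 lowest after auxin at 62.2 CPM (gap 0.754), cyp-31A2 lowest after auxin at 99.7 CPM (gap 0.727) and gst-35 highest with ethanol at 2.88 CPM (gap 0.626).

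In batch V the ethanol library was highest for his-63 (9.80 against 1.21 to 3.79 CPM, gap 0.7) and his-64 (6.70 against 0.281 to 2.35 CPM, gap 0.678) and lowest for C34D4.10 (10.1 against 12.2 to 13 CPM, gap 0.735). The auxin library of batch V was highest for ugt-63 (166 against 97.3 to 122 CPM, gap 0.635) and ugt-8 (25 against 6.88 to 13.1 CPM, gap 0.657). The auxin library of batch VIII had the lowest chk-2 level, 2.93 against 4.20 to 4.88 CPM (gap 0.653), while the lowest ethanol library had 17.7 CPM.

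Single libraries also stood apart for bec-1 (ethanol, batch I, 19.9 CPM, gap 0.645), elo-2 (ethanol, batch II, 453 CPM, gap 0.632) and gst-10 (auxin, batch I, 30.5 CPM, gap 0.726). Intron 5 of glh-4 had no read in the ethanol library of batch II (gap 0.791), and intron 4 of C24F3.2 was highest after auxin in batch II at 0.435 CPM (gap 0.636). The ethanol library of batch VII held 10.9 intron reads per 1000 gene reads against 10.2 to 10.5 in the others (gap 0.66).

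The 6 libraries taken after 2 h of auxin, which enter no comparison above, held 34.2 intron reads per 1000 gene reads on average (31.3 to 38.1), all above the ethanol range.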

How the results depend on the processing

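The number of genes called depended on the model. It was 4195 with the batch block, 2683 with DESeq2 and 1254 with no replicate block, and the cause was not tested; all 18 libraries, library sizes alone, no filter and each batch left out gave 3508 to 4348. For introns the count of 8687 became 22308 of 76639 with no filter on low counts, where more introns are tested, and stayed within 1.5 times under the other settings (8302 to 9373 with a batch left out), including no replicate block (8637). Introns relative to the host gave 7785 to 7866 with a batch left out, against 7897. The ratio of intron reads was 2.65 to 2.73 with a batch left out, where 5 batches allow no p below 0.0625. The mog-7 change was -0.00916 with library sizes alone (adjusted p = 0.891) and ran from -0.0149 (without batch VIII) to 0.0312 with a batch left out. Intron 1 of rps-13 changed sign to -0.749 (adjusted p = 1.6e-13) when TMM was run on intron counts. Dropping the pairing by batch took the call from 18 of 102 named genes and changed no call of the 26 named introns; DESeq2 took it from 2 of 97 genes, and leaving out a batch from 3 or fewer of 102. Depth limits single introns, of which 2927 tested ones give only a lower bound.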

Other observations

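Genes were also set out by how many intron intervals they have. Of 253 tested genes with none, 17.8% rose and 9.09% fell, and of 1076 genes having 1 interval 11.1% rose and 8.09% fell. Of 3555 genes with 7 to 12 intervals 16.6% rose and 18.5% fell, and of 1059 genes with 13 or more 21.6% rose and 13% fell. The shares called down were thus lowest in genes with 0 or 1 interval, and among genes with more intervals they did not follow the number. The median log2 change lay between 0.0063 and 0.056 in every class.

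Set out by gain in load, 2358 genes that gained under 5 intron reads per 1000 gene reads rose in 38.7% and fell in 5.05% of cases, with a median log2 change of 0.083. The 81 genes that gained over 200 rose in 12.35% and fell in 59.3%, with a median of -0.147. The load shares the gene count, so these are descriptions and no test was made. Further falls outside the 12 largest, picked after their values were seen, were T16G12.3, from 77.8 to 95.8 CPM with ethanol to 37.6 to 41.9 CPM after auxin (log2 -1.09, SE 0.037) with a median load of 27.8 and 107, and rpa-4, from a median of 14.5 to 7.45 CPM (log2 -0.94, SE 0.062) with a load of 1.24 and 26.2.

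Introns that belong to several genes rose 3.05-fold as a class (2.82 to 3.39 within batches), and introns whose host is outside the table of protein-coding genes had a ratio of 1.71 (1.58 to 1.84). Introns that overlap an exon on the opposite strand rose by a factor of 1.65 (1.54 to 1.82). No strand setting is given for the intron table, so reads of the 2 strands may be mixed there.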
